A study of Arabidopsis thaliana with 16 samples.

Results

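Arabidopsis thaliana seedlings without phytochrome A were compared with wild-type seedlings after 24 h in strong simulated shade. The arrays were taken by their sample titles and are 6 of the 16 arrays of the series, 3 of the phyA mutant and 3 of the wild type (WT). The mutant carried phyA-211, a null allele of PHYA, in the Col-0 background, and WT was Col-0. All seedlings were imbibed for 2 days in the cold and grown for 5 days in continuous white light at 22 degrees before the 24 h treatment. In strong shade, LEDs gave 3 µmol m-2 s-1 of red, 3.5 of blue and 30 of far-red, so that red over far-red was 0.1. The other 10 arrays serve only to set the genotype difference beside that in other light. They are 3 phyA and 3 WT arrays from a milder shade in which red over far-red was 0.7 (13 of red, 3.5 of blue and 21 of far-red), and 2 phyA and 2 WT arrays left in white light of about 45 µmol m-2 s-1. RNA came from whole seedlings, so that fewer cells of a type and less RNA per cell cannot be told apart. The labels do not say whether replicates were grown separately. The p-values set the genotype difference against the spread of arrays within the groups, and part of that spread may be technical. They therefore speak only for these samples.

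Phytochromes are light receptors that switch between an inactive form, which absorbs red light, and an active form, which absorbs far-red light. Phytochrome A is the member that signals under continuous far-red light. The small proteins FHY1 and FHL carry it into the nucleus, where it promotes light responses through transcription factors such as HY5 and HYH. Canopy shade is rich in far-red light, which inactivates phytochrome B and lets stems elongate, and phytochrome A is known to restrain that elongation when far-red light is in large excess.

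Each array gave 1 intensity for each of 22746 probe sets, and all levels below are log2 of that intensity. Differences are phyA minus WT, so that 1 stands for a doubling in phyA, and values after ± are standard errors of the difference. A probe set was called at an adjusted p under 0.05, from limma with Benjamini-Hochberg adjustment over all 22746 probe sets. Close to the low end of an array a difference understates the change in RNA, and the level of one probe set was not compared with that of another.

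The third phyA array stood apart from its group. Over all probe sets it correlated with the other phyA strong shade arrays at 0.979 to 0.983, and with the first and second phyA arrays of the milder shade at 0.991 and 0.992. The third phyA array of the milder shade correlated with its own group at 0.986, and with the first and second phyA strong shade arrays at 0.993 and 0.994. The third phyA arrays of the shades correlated with each other at 0.981. The third phyA strong shade array correlated on average at 0.983 with the WT arrays of the milder shade and at 0.971 with those of strong shade. The WT strong shade arrays correlated with each other at 0.993 to 0.994. Whether the third phyA arrays of the shades were exchanged was not tested, and the labels were kept, with results given with and without the third array where it matters.

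In strong shade 1832 probe sets were called between phyA and WT, which is 8.05% of those tested. Of these, 724 were higher in phyA (3.18%) and 1108 were lower (4.87%). Falls also reached further: 191 probe sets were higher and 478 were lower by at least 1 on the log2 scale, while the median over all probe sets was 0.02. With 1 probe set for each of 13355 genes, as the lists below count them, 366 genes were higher and 543 lower, with the adjustment still over all probe sets. The counts of each list are to be read beside the 3.18% and 4.87% over all probe sets. Counts of differences below or above 0 are to be read beside the 45.8% of all probe sets that were below 0. Without the third phyA array 2509 probe sets were called (11.0%), 1152 higher (5.06%) and 1357 lower (5.97%), and 679 and 1056 of these were also called with all 6 arrays. For the probe sets called without it, the third array held a median of 78.6% of the difference among the higher and 88.7% among the lower. These probe sets were picked by the other arrays, so some shortfall would arise for any array left out. The same share was not taken for the other arrays. Leaving out other arrays lowered the counts, to 307 higher and 761 lower without the first phyA array and to 610 higher and 1032 lower without the second. They were 293 higher and 708 lower without the first WT array, 310 and 760 without the second WT array, and 246 and 664 without the third WT array.

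**Figure D1:**
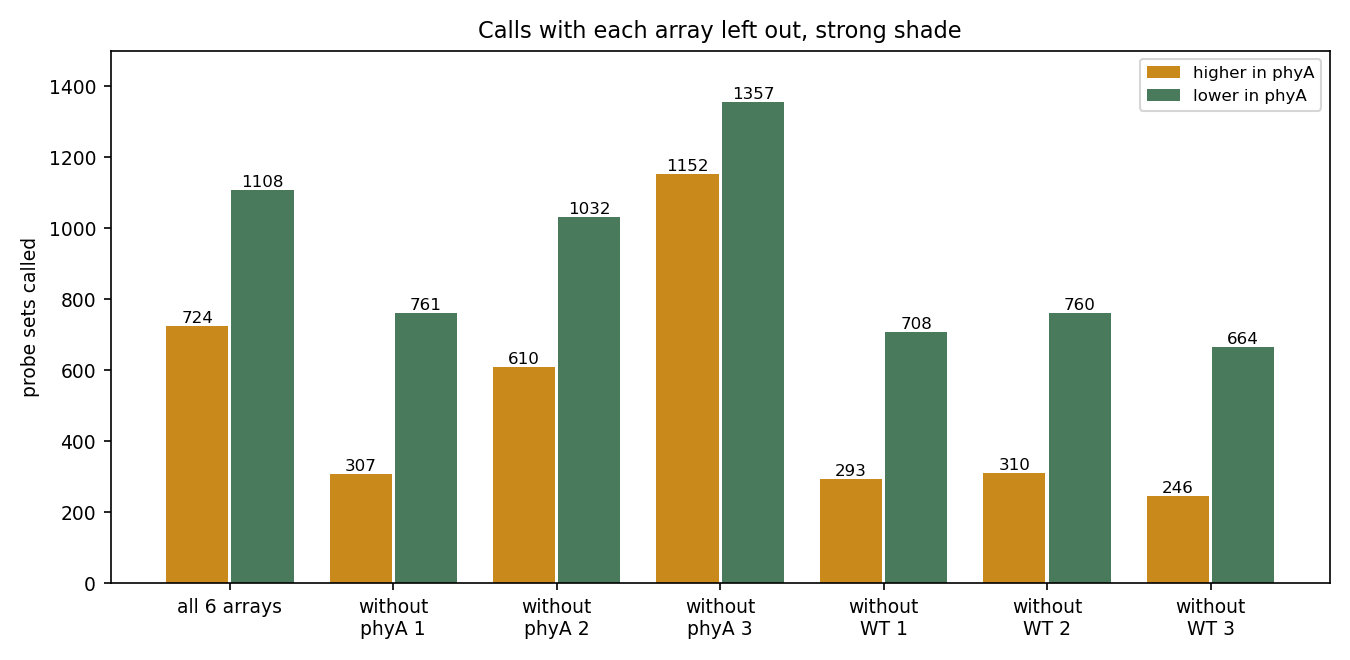
Number of probe sets called higher and lower in phyA than in WT (vertical axis) with all 6 strong shade arrays and with each array left out in turn (horizontal axis). Calls were most numerous without the third phyA array, 1152 higher and 1357 lower, and fewest without the third WT array, 246 higher and 664 lower.

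The genes closest to phytochrome A itself moved in both directions. FHL, which carries phytochrome A into the nucleus, measured 6.42, 6.37 and 6.52 in phyA against 2.97, 3.20 and 3.24 in WT. The difference of 3.30 ± 0.12 (adjusted p = 1.47e-05) was the largest rise of any probe set with 1 named gene. HYH, a transcription factor that promotes light responses, measured 3.22, 3.22 and 3.32 in phyA against 4.77, 5.16 and 4.82 in WT, a difference of -1.66 ± 0.13 (adjusted p = 0.000232). The genotypes did not overlap for either gene, and the phyA arrays lay close together. Over all probe sets, every phyA array lay above every WT array for 14.6% and below for 12.1%. No probe set was annotated as PHYA, so the targeted gene was not read by name. The probe set with the largest difference in either direction, 264508_at, has no gene listed in the annotation used here. It measured 2.37, 1.94 and 2.21 in phyA against 8.11, 8.14 and 8.04 in WT, a difference of -5.92 (adjusted p = 7.21e-07). The difference was -3.0 in white light and -6.18 in the milder shade.

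Genes of photosynthesis and of the chloroplast were lower in phyA in several lists. All 3 measured genes of the Calvin cycle, which fixes carbon dioxide, were lower in phyA, with a median of -2.06, and kept their calls with any array left out. SBPASE, sedoheptulose-bisphosphatase, helps to regenerate the acceptor of carbon dioxide and measured 7.35, 7.30 and 7.21 in phyA against 9.72, 9.61 and 9.90 in WT, a difference of -2.46 ± 0.12 (adjusted p = 3.24e-05). PRK, phosphoribulokinase, makes that acceptor and measured 9.14, 9.24 and 8.78 in phyA against 11.16, 11.05 and 11.13 in WT, a difference of -2.06 ± 0.14 (adjusted p = 0.000133). RCA, rubisco activase, keeps the carbon-fixing enzyme active and measured 10.35, 10.21 and 10.79 in phyA against 11.93, 11.76 and 12.11 in WT, a difference of -1.49 ± 0.17 (adjusted p = 0.00121). For each of them every phyA array lay below every WT array, as was so for 12.1% of all probe sets.

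Both measured genes of photorespiration, which salvages the side product of rubisco, fell as well. LrgB, the transporter of glycolate and glycerate in the chloroplast envelope, measured 4.26, 4.66 and 4.93 in phyA against 7.74, 7.37 and 8.12 in WT, a difference of -3.13 ± 0.22 (adjusted p = 0.00016). HPR, hydroxypyruvate reductase of the peroxisome, measured 10.96, 11.04 and 10.59 in phyA against 11.63, 11.64 and 11.74 in WT, a difference of -0.81 ± 0.14 (adjusted p = 0.00989). The fall of LrgB was called with any array left out, while that of HPR was not called without the third WT array, at -0.77 (adjusted p = 0.0571).

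The chloroplast NDH complex passes electrons around photosystem I. Of its 9 measured genes 4 fell and 5 were not called, all 9 differences were below 0, and the median was -0.78. NdhN, a subunit, measured 3.60, 3.78 and 4.70 in phyA against 7.71, 7.41 and 7.78 in WT, a difference of -3.61 ± 0.27 (adjusted p = 0.000178). The third phyA array was the highest of the mutant and still far below WT. NdhL, another subunit, measured 5.70, 5.72 and 5.62 in phyA against 7.87, 7.54 and 7.92 in WT, a difference of -2.10 ± 0.13 (adjusted p = 8.99e-05). CRR42, an assembly factor of the complex, differed by -1.55 ± 0.16 (adjusted p = 0.000789), and PIFI, a stromal protein needed for its function, by -1.01 ± 0.12 (adjusted p = 0.00129). These 4 kept their calls with any array left out. The largest difference among the rest was that of CRR21, an RNA editing factor, at -0.78 (adjusted p = 0.0748).

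Of 16 measured light-harvesting, photosystem and ATP synthase genes, 9 fell, none rose, and 15 of the differences were below 0, with a median of -0.64 and with RCA counted again. The count was 5 without the first or the third WT array and 10 without the third phyA array. CaS, a calcium-sensing protein of the thylakoid, measured 4.66, 4.31 and 6.75 in phyA against 8.20, 7.62 and 8.36 in WT, a difference of -2.82 ± 0.56 (adjusted p = 0.0178). The third phyA array lay well above the others, and without it the difference was -3.57 (adjusted p = 2.14e-05). CaS was not called without the first phyA array, or without the first or the third WT array, and the highest adjusted p came with -2.67 (adjusted p = 0.0938) without the third WT array. Nor was it called with all 6 arrays when limma used a trended, robust prior (adjusted p = 0.0936). LIL3:1, a light-harvesting-like protein that acts in chlorophyll synthesis, measured 5.62, 5.49 and 6.05 in phyA against 7.49, 7.59 and 7.79 in WT, a difference of -1.90 ± 0.16 (adjusted p = 0.000343). ATPC1, a subunit of the chloroplast ATP synthase, differed by -1.06 ± 0.14 (adjusted p = 0.00215), and PSBY of photosystem II by -0.96 ± 0.12 (adjusted p = 0.002). The antenna genes LHCB4.1 and LHCB4.2, of the minor antenna CP29, were not called, at -0.16 (adjusted p = 0.619) and -0.18 (adjusted p = 0.495). Their close relative LHCB4.3 was at -0.57 (adjusted p = 0.0565) and was called without the third phyA array, at -0.69 (adjusted p = 0.0126). Near-identical members of a family may share a probe set.

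Of 10 measured genes of tetrapyrrole and chlorophyll synthesis 4 fell and none rose, with a median of -0.37. CHLI2, a subunit of the chelatase that inserts magnesium, measured 4.59, 4.79 and 4.60 in phyA against 5.81, 5.76 and 5.92 in WT, a difference of -1.17 ± 0.11 (adjusted p = 0.000526). It was the only 1 of the 4 that kept its call with any array left out. HEME1, a decarboxylase of the pathway, was not called without the third WT array, at -0.65 (adjusted p = 0.0535). CHLM, a methyltransferase, was not called without the first, the second or the third WT array, and the highest adjusted p came with -0.64 (adjusted p = 0.0933) without the third WT array. The last of the 4, HEME2, lost its call with any 1 array left out. Its highest adjusted p came with -0.42 (adjusted p = 0.137) without the first WT array. PORB, which makes chlorophyllide in light, was at -0.17 (adjusted p = 0.49).

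Among 69 measured plastid-encoded genes, 64 differences were below 0 and the median was -0.34, but 8 were called lower and none higher. The largest fall of the list, petG at -1.60, was not called in this fit, though it was with array weights or a replicate block. The count was 0 without the first WT array, 1 without the first phyA array, 2 without the third WT array, 4 without the second WT array and 12 without the third phyA array. The rbcL gene, for the large subunit of rubisco, measured 8.29, 8.52 and 8.04 in phyA against 9.32, 9.03 and 9.12 in WT. Its difference of -0.87 ± 0.15 (adjusted p = 0.00909) was not called without the first WT array, at -0.79 (adjusted p = 0.0505). The others called were psbN at -0.92, ndhE at -0.75, ndhK at -0.71, ndhJ at -0.70, ycf4 at -0.69, psbD at -0.66 and psaJ at -0.62.

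**Figure D2:**
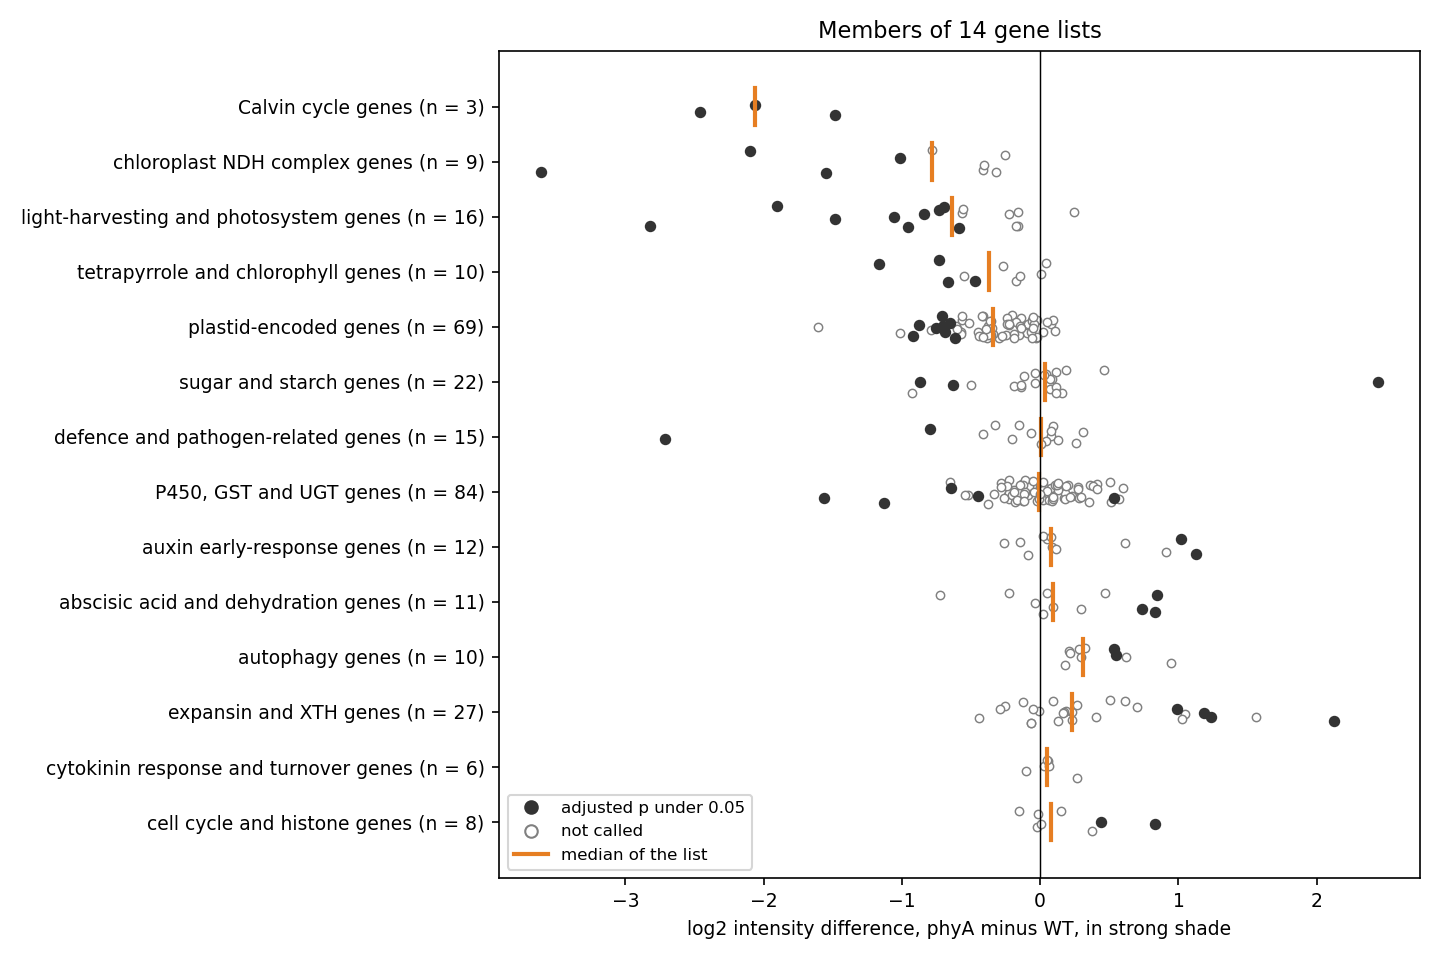
Difference in log2 intensity, phyA minus WT in strong shade (horizontal axis), for every measured member of 14 gene lists (vertical axis), filled where called and open where not, with an orange mark at the median of each list (GST, glutathione transferase; UGT, glycosyltransferase). All 3 Calvin cycle genes lie at -1.49 or below, and the highest expansin or XTH gene lies at 2.13.

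Some genes outside these lists were picked after their values were seen, because they were lower in phyA, and they are given as single genes that speak for no group. HCF101, which assembles iron-sulphur clusters for photosystem I, measured 5.22, 5.20 and 5.09 in phyA against 7.23, 7.04 and 7.36 in WT, a difference of -2.04 ± 0.12 (adjusted p = 8.47e-05). Cpn60beta4, a subunit of the chloroplast chaperonin, measured 3.38, 3.05 and 3.62 in phyA against 5.83, 5.79 and 6.24 in WT, a difference of -2.60 ± 0.18 (adjusted p = 0.000145), whereas the related Cpn60beta3 was higher in phyA, at 0.56 (adjusted p = 0.0131). CCB3, which helps to attach haem to cytochrome b6, differed by -1.74 ± 0.23 (adjusted p = 0.00247). FUG1, the plastid translation initiation factor, differed by -1.28 ± 0.11 (adjusted p = 0.000348). By contrast CLPP4, the only measured gene of the list of plastid ribosomal and gene expression genes, was not called, at -0.11. NTRC, a chloroplast thioredoxin reductase, differed by -1.17 ± 0.16 (adjusted p = 0.0029). TAPX, the peroxidase of the thylakoid that uses ascorbate, differed by -1.12 ± 0.17 (adjusted p = 0.00474). Apart from the chloroplast, ATSPS4F, a sucrose phosphate synthase, measured 3.00, 3.16 and 2.94 in phyA against 5.60, 4.87 and 6.68 in WT, a difference of -2.69 ± 0.38 (adjusted p = 0.00346) with a wide spread in WT.

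Among the 12 named genes with the largest falls, 9 carry only a locus tag, and no role is given for them. AT1G65230 had the largest fall of any named gene, with 3.89, 3.79 and 4.32 in phyA against 7.73, 7.60 and 7.91 in WT, a difference of -3.75 ± 0.16 (adjusted p = 2.12e-05). AT3G48420 measured 4.22, 3.91 and 4.52 in phyA against 7.46, 7.36 and 7.93 in WT, a difference of -3.37 ± 0.20 (adjusted p = 8.47e-05). The differences were -3.07 for AT1G78995, -2.91 for AT1G65490, -2.89 for AT3G48200 and -2.87 for AT1G27480. They were -2.82 for AT2G04790 and -2.76 for AT1G14345. AT3G22060 was the most uneven, with 3.02, 3.63 and 2.62 in phyA against 5.44, 5.32 and 7.05 in WT, a difference of -2.85 ± 0.45 (adjusted p = 0.00589). All 9 kept their calls under every alternative tried. The 12 largest falls without the third phyA array also took in AT2G04039 at -2.94 (adjusted p = 4.23e-06), AT1G51110 at -2.98 (adjusted p = 6.74e-05) and AT3G28270 at -3.39 (adjusted p = 3.3e-05). With all 6 arrays these differed by -2.72 (adjusted p = 0.000139), -2.71 (adjusted p = 0.000774) and -2.56 (adjusted p = 0.0387), and AT3G28270 was not called without the first or the second phyA array, or without the first, the second or the third WT array.

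**Figure D3:**
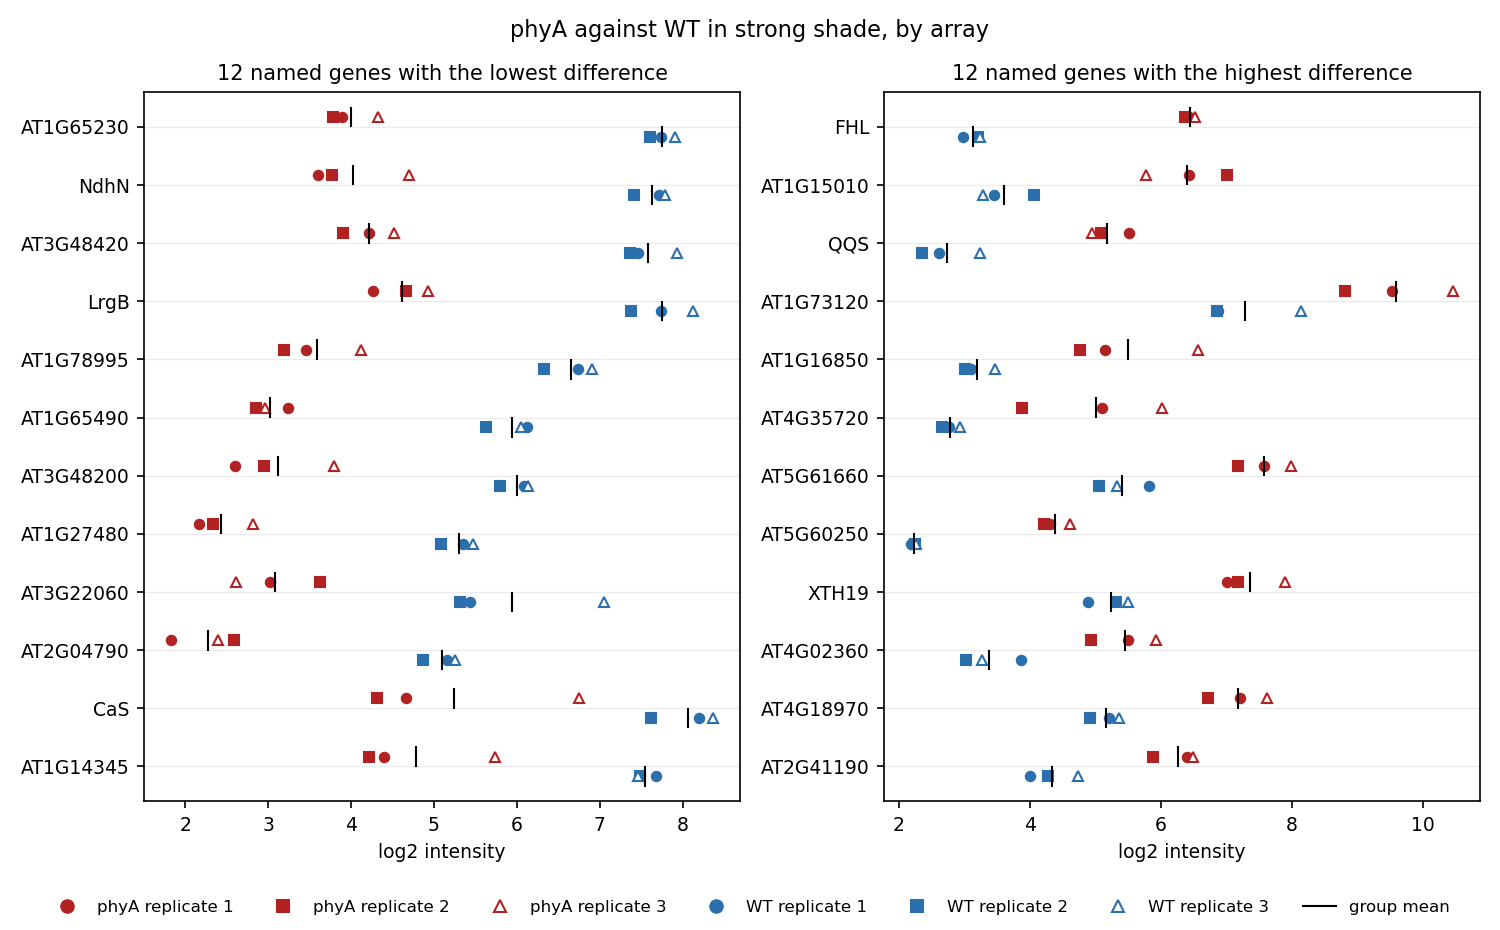
Log2 intensity (horizontal axis) on each strong shade array for the 12 named genes with the largest falls and the 12 with the largest rises in phyA (vertical axis), phyA above WT, with a black line at each group mean and open triangles for the third arrays. Genes were picked only where the groups do not overlap. For CaS the third phyA array is at 6.75 and the lowest WT array at 7.62.

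Genes of the cell wall were among the named rises. Of 27 measured expansin and XTH genes, whose products loosen and remodel the wall, 4 rose, none fell, and the median was 0.23, or 0.01 without the third phyA array. The count was 2 without the first phyA, the first WT or the third WT array, and 5 without the second or the third phyA array. XTH19, an enzyme that cuts and rejoins xyloglucan, measured 7.01, 7.17 and 7.89 in phyA against 4.88, 5.32 and 5.49 in WT, a difference of 2.13 ± 0.25 (adjusted p = 0.00123). EXLA2, an expansin-like protein, measured 5.68, 6.08 and 5.88 in phyA against 4.59, 5.07 and 4.44 in WT, a difference of 1.18 ± 0.18 (adjusted p = 0.00535). Both kept their calls with any array left out. EXPB1, a beta-expansin, measured 3.92, 3.29 and 4.37 in phyA against 2.67, 2.62 and 2.59 in WT, a difference of 1.23 ± 0.24 (adjusted p = 0.0163). It was not called without the first phyA array, or without the first, the second or the third WT array, and the highest adjusted p came with 1.21 (adjusted p = 0.0809) without the third WT array. XTH33 differed by 0.99 ± 0.18 (adjusted p = 0.0107) and was not called without the first phyA array, or without the first or the third WT array. For other members the third phyA array decided the size: EXPA16, an expansin, measured 5.29, 5.33 and 6.99 in phyA against 4.17, 4.11 and 4.64 in WT, at 1.56 (adjusted p = 0.0593) with all arrays and 1.00 (adjusted p = 0.00494) without the third array. XTH18, a near relative of XTH19 that may share probes with it, was at 1.05 (adjusted p = 0.222).

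Of 14 other cell wall genes CSLC04, a synthase of the xyloglucan backbone, was the only call, with 6.53, 6.26 and 6.99 in phyA against 4.96, 5.28 and 5.51 in WT, a difference of 1.34 ± 0.21 (adjusted p = 0.00535). Tubulins build the microtubules that guide the laying down of cellulose, and this family was picked after its values were seen. Of 7 measured tubulin genes 5 were higher in phyA and none lower, and without the third WT array 3 were. TUB1 measured 4.75, 4.83 and 5.25 in phyA against 3.20, 3.25 and 3.71 in WT, a difference of 1.55 ± 0.18 (adjusted p = 0.00136). TUA6 measured 9.03, 8.91 and 9.45 in phyA against 8.19, 7.90 and 8.01 in WT, a difference of 1.1 ± 0.16 (adjusted p = 0.00427). TUB7 differed by 0.96, TUB6 by 0.89 and TUB9 by 0.58, while TUB5 was at 0.08 (adjusted p = 0.829) and TUA1 at -0.15 (adjusted p = 0.744).

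Hormone genes moved singly. Of 12 measured early auxin-response genes 2 rose and none fell, with a median of 0.08, and both calls held with any array left out. WES1, a GH3 enzyme that joins auxin to amino acids, measured 10.33, 10.13 and 9.93 in phyA against 9.09, 9.06 and 8.87 in WT, a difference of 1.13 ± 0.14 (adjusted p = 0.00154). IAA30, of the Aux/IAA family of repressors, measured 4.23, 3.85 and 4.08 in phyA against 3.33, 3.03 and 2.76 in WT, a difference of 1.02 ± 0.17 (adjusted p = 0.00791). BIM1, a partner of the brassinosteroid transcription factor BES1, measured 6.81, 6.70 and 6.67 in phyA against 5.64, 5.79 and 5.64 in WT, a difference of 1.04 ± 0.11 (adjusted p = 0.000742). Among shade-induced genes FHL and BIM1 rose, while IAA29 was at 0.91 (adjusted p = 0.251) and HAT2 at -0.09 (adjusted p = 0.866). None of 4 auxin synthesis genes, 3 gibberellin receptor genes and 6 cytokinin response genes was called. The gibberellin receptor GID1A was at 0.44 (adjusted p = 0.0822), and without the third phyA array it was called, at 0.54 (adjusted p = 0.0268).

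Of 11 measured genes of abscisic acid and dehydration 3 rose and none fell, with a median of 0.10, or -0.09 without the third phyA array. COR47, a dehydrin, measured 10.44, 10.17 and 10.60 in phyA against 9.49, 9.52 and 9.66 in WT, a difference of 0.85 ± 0.14 (adjusted p = 0.00639). RD2, a dehydration-responsive gene, measured 9.14, 9.07 and 9.44 in phyA against 8.50, 8.44 and 8.49 in WT, a difference of 0.74 ± 0.13 (adjusted p = 0.00956). HIS1-3, a linker histone induced by drought, differed by 0.83 ± 0.18 (adjusted p = 0.0272) and was not called without the first phyA array, or without the first, the second or the third WT array. Of 2 seed storage and oil body genes OLEO3, an oleosin that coats oil bodies, rose, with 4.10, 3.89 and 4.70 in phyA against 2.53, 2.67 and 2.52 in WT, a difference of 1.66 ± 0.20 (adjusted p = 0.00148). The seed storage gene PAP85 was at 0.27 (adjusted p = 0.443).

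All 10 measured autophagy genes, which serve the recycling of cell contents, had differences above 0, with a median of 0.31, but only 2 were called. APG8A and APG8H, of the ATG8 family that coats autophagosomes, differed by 0.55 ± 0.12 (adjusted p = 0.0267) and 0.54 ± 0.11 (adjusted p = 0.0177). No autophagy gene was called without the second phyA array or without any 1 of the WT arrays, 1 was called without the first phyA array and 4 without the third phyA array. ATG8B measured 7.82, 7.92 and 6.93 in phyA against 6.39, 6.91 and 6.53 in WT, at 0.95 (adjusted p = 0.0674) with all arrays and 1.26 (adjusted p = 0.00113) without the third phyA array.

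Of 8 genes of dark and low-energy metabolism 1 was called, MGL, which splits methionine, with 9.87, 9.79 and 9.03 in phyA against 8.24, 8.71 and 8.20 in WT, a difference of 1.18 ± 0.24 (adjusted p = 0.0196). It was not called without the first or the second phyA array, or without the first or the third WT array. For several of these genes the third phyA array lay far below the other 2. MCCB, a subunit of the enzyme that breaks down leucine, measured 10.29, 10.40 and 9.10 in phyA against 9.21, 9.62 and 9.57 in WT, at 0.46 (adjusted p = 0.485) with all arrays and 0.88 (adjusted p = 0.0054) without the third array. PPDK, pyruvate orthophosphate dikinase, measured 9.98, 10.18 and 8.77 in phyA against 9.26, 9.62 and 9.71 in WT, and MCCA, the partner of MCCB, measured 10.34, 10.53 and 9.06 in phyA against 9.88, 10.17 and 10.22 in WT.

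**Figure D4:**
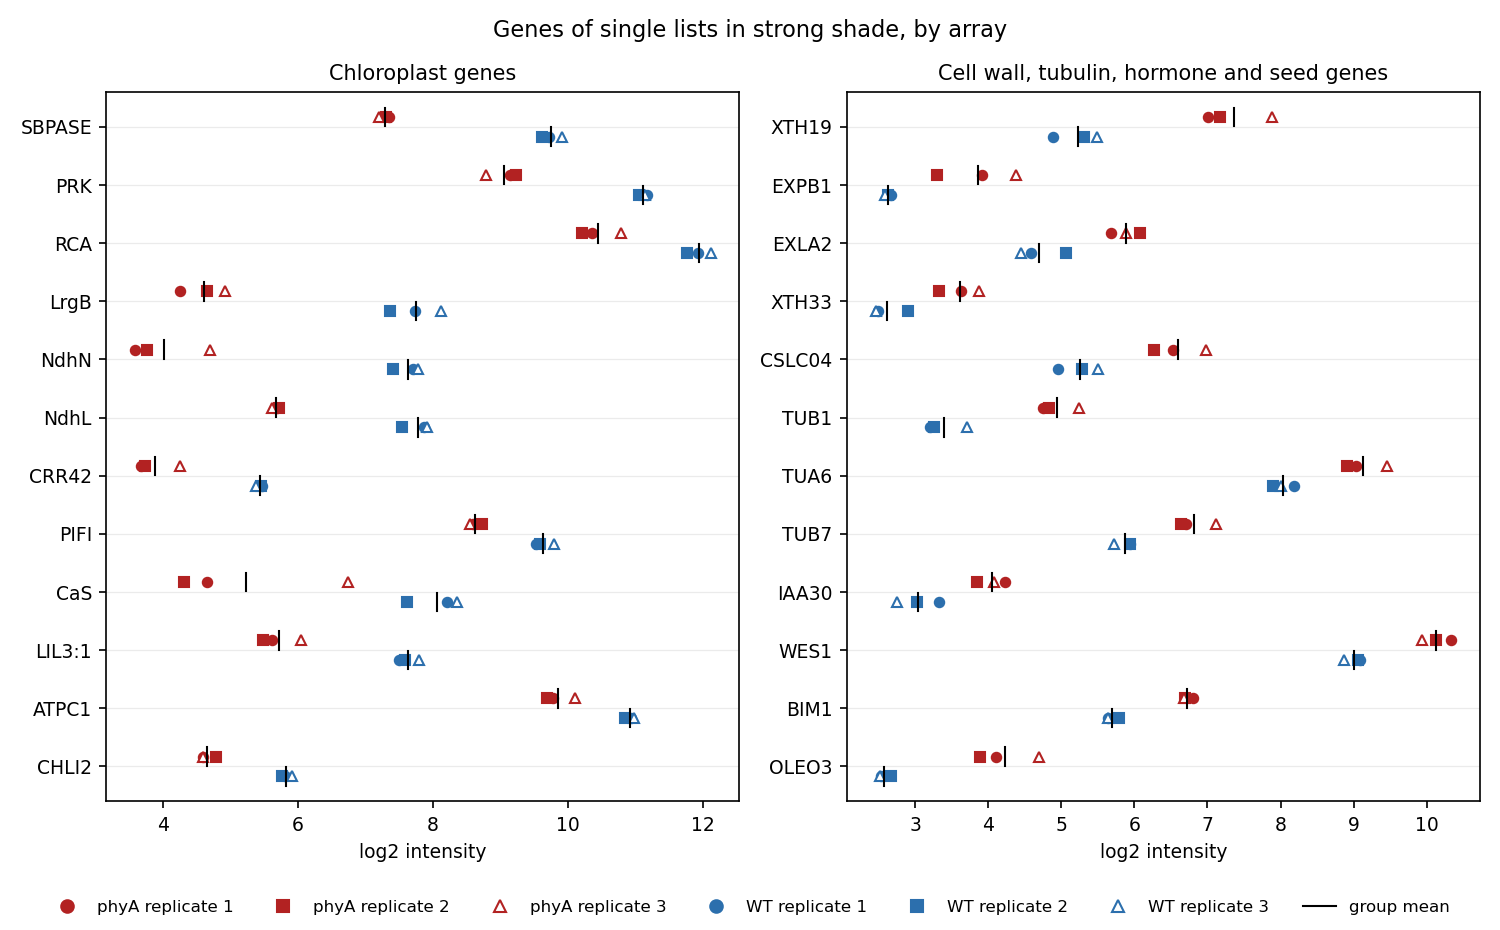
Log2 intensity (horizontal axis) on each strong shade array for 12 chloroplast genes lower in phyA (left) and 12 genes of the cell wall, tubulins, hormones and seed oil that were higher (right), phyA above WT, with a black line at each group mean and open triangles for the third arrays. For SBPASE the highest phyA array is at 7.35 and the lowest WT array at 9.61, and for XTH19 the lowest phyA array is at 7.01 and the highest WT array at 5.49.

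Among the 12 largest named rises, QQS carries a symbol beside FHL and XTH19. QQS, a gene known only from Arabidopsis that affects starch content, measured 5.51, 5.08 and 4.94 in phyA against 2.61, 2.35 and 3.24 in WT, a difference of 2.44 ± 0.24 (adjusted p = 0.00055). The others carry only a locus tag. AT1G15010 measured 6.43, 7.0 and 5.77 in phyA against 3.46, 4.06 and 3.28 in WT, a difference of 2.80 ± 0.31 (adjusted p = 0.001). AT5G60250 was the most even, with 4.31, 4.21 and 4.61 in phyA against 2.19, 2.25 and 2.26 in WT, a difference of 2.14 ± 0.13 (adjusted p = 8.47e-05). AT5G61660 differed by 2.17, AT4G02360 by 2.07, AT4G18970 by 2.02 and AT2G41190 by 1.92, and these kept their calls under every alternative tried. AT1G73120 differed by 2.31 (adjusted p = 0.0169) and was not called without the first phyA array, or without the first or the second WT array. AT1G16850 differed by 2.3 (adjusted p = 0.0103) and was not called without the first or the second WT array. AT4G35720 differed by 2.22 (adjusted p = 0.0184) and was not called without the first phyA array, or without the first, the second or the third WT array. The 12 largest rises without the third phyA array also took in M10 at 2.19 (adjusted p = 0.000161) and AT5G24580 at 2.11 (adjusted p = 1.8e-05). With all 6 arrays M10 was at 1.77 (adjusted p = 0.0159) and was not called without the first phyA array, or without the first or the third WT array. AT5G24580 was at 1.60 (adjusted p = 0.0354) and was not called without the first or the second phyA array, or without the first, the second or the third WT array.

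Other gene groups gave few calls. Of 13 heat shock and redox genes 2 rose and 1 fell, and the fall was TRXF2, an f-type thioredoxin that activates Calvin cycle enzymes, with 6.09, 5.89 and 5.88 in phyA against 6.94, 7.0 and 6.98 in WT, a difference of -1.02 ± 0.11 (adjusted p = 0.000855). The rises, BOB1 at 0.42 (adjusted p = 0.0456) and PRXR1 at 0.65 (adjusted p = 0.0418), were both lost without the first phyA array or any 1 WT array, and BOB1 with any 1 array left out. Of 8 cell cycle and histone genes 2 rose, HIS1-3 and the histone HTB4, and no such gene was called without any 1 WT array or without the first phyA array. Of 15 measured defence genes 2 fell and none rose, with a median of 0.01. THI2.2, a thionin, which is a small antimicrobial peptide, measured 6.03, 6.27 and 5.90 in phyA against 8.92, 7.98 and 9.44 in WT, a difference of -2.71 ± 0.32 (adjusted p = 0.00139). PDF2.5, a defensin-like peptide, differed by -0.80 ± 0.15 (adjusted p = 0.0138) and was not called without the first, the second or the third WT array. Of 84 cytochrome P450, glutathione transferase and glycosyltransferase genes 1 rose and 4 fell, with a median of -0.01, and with 1 array left out 0 to 2 were higher and 2 to 5 lower. Over all probe sets 3.18% were higher and 4.87% lower, so the counts of this list do not stand out. GSTU18, a glutathione transferase, measured 5.56, 5.30 and 6.01 in phyA against 7.18, 6.94 and 7.43 in WT, a difference of -1.56 ± 0.20 (adjusted p = 0.00217). UGT78D2, which adds glucose to flavonols and anthocyanins, measured 5.63, 5.43 and 5.25 in phyA against 6.66, 6.59 and 6.46 in WT, a difference of -1.13 ± 0.13 (adjusted p = 0.00125), and was the only call among 8 flavonoid genes.

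Of 22 sugar and starch genes QQS rose and 2 fell. SWEET11, a sucrose exporter, measured 9.50, 9.35 and 9.63 in phyA against 10.38, 10.33 and 10.38 in WT, a difference of -0.87 ± 0.11 (adjusted p = 0.00235). SBE2.2, a starch branching enzyme, differed by -0.63 ± 0.12 (adjusted p = 0.0179) and was not called without the first or the second phyA array, or without the second or the third WT array. None of 6 glucosinolate genes was called with all 6 arrays. GTR1, a glucosinolate transporter, measured 3.39, 3.71 and 4.73 in phyA against 4.76, 4.39 and 5.03 in WT, and without the third phyA array it was called, at -1.18 (adjusted p = 0.00427). None of 13 water and ion transport genes was called, and APS3, an ATP sulfurylase of sulphur assimilation, was at 0.92 ± 0.16 (adjusted p = 0.00983) and was not called without the second or the third WT array.

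Markers of organs were measured in the same fit. None of 3 root markers was called, with differences from -0.44 to -0.23. PYK10, a beta-glucosidase abundant in roots, measured 9.58, 9.66 and 10.78 in phyA against 10.18, 10.15 and 10.38 in WT, with the third phyA array above all WT arrays and the other 2 below them. PYK10 was lower in phyA without that array, at -0.62 (adjusted p = 0.0127). Of 5 markers of shoots and green tissue 2 fell, RCA as above and YAB3, a gene of leaf polarity, at -0.50 (adjusted p = 0.0422), which was not called with any 1 array left out. The other 3 were the LHCB4 genes. The part of organ makeup in the lower chloroplast genes was not tested.

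The genotype difference was then set beside that in other light, in a model of all 16 arrays, which has more residual degrees of freedom than the fit of 6. In that model strong shade gave 2659 calls (11.7%), 1235 higher (5.43%) and 1424 lower (6.26%). In white light 35 probe sets were called between phyA and WT (0.154%), 17 higher (0.0747%) and 18 lower (0.0791%). In the milder shade 1086 were called (4.77%), 270 higher (1.19%) and 816 lower (3.59%), and without the third phyA arrays of both shades 1254 (5.51%), 392 higher (1.72%) and 862 lower (3.79%). The test of whether the genotype difference in strong shade departed from that in white light called 833 probe sets (3.66%), 254 towards higher (1.12%) and 579 towards lower (2.55%) in phyA. Without the third phyA arrays of both shades it called 1236 (5.43%), 479 towards higher (2.11%) and 757 towards lower (3.33%). White light and the LED shades differ in lamp and in amount of light, and these cannot be told apart from the red to far-red balance.

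That test was passed by all 3 Calvin cycle genes, 4 of 9 NDH genes, 8 of 16 light-harvesting and photosystem genes, and 2 of 27 expansin and XTH genes. It was passed by 1 of 2 photorespiration genes, 1 of 10 tetrapyrrole genes and 1 of 69 plastid-encoded genes. Towards higher, 4 of 7 tubulin, 2 of 11 abscisic acid, 2 of 12 early auxin-response and 2 of 4 shade-induced genes passed it. Towards lower, 3 of 8 flavonoid, 3 of 84 P450, glutathione transferase and glycosyltransferase, and 2 of 5 shoot and green tissue marker genes did. A gene can also pass the test through its difference in white light. Of the 8 flavonoid genes only 1 was called lower in strong shade, and 1 was called higher in white light, where their median was 0.13. Of the 11 abscisic acid genes 1 was called lower in white light. RCA counts in the Calvin cycle, light-harvesting and shoot marker lists alike. SBPASE differed between the genotypes by -0.25 in white light and -1.52 in the milder shade, and its difference in strong shade lay below that in white light by -2.20 (adjusted p = 5.98e-06). NdhN differed by -0.32 in white light and -3.19 in the milder shade, with a change of -3.29 (adjusted p = 4.63e-05) between white light and strong shade. FHL differed by -0.05 in white light and 2.2 in the milder shade, with a change of 3.35 (adjusted p = 4.85e-05). These genes showed little genotype difference in white light and a large one in both shades. THI2.2 differed by 0.40 in white light and -0.57 in the milder shade, with a change of -3.11 (adjusted p = 0.000284). XTH19 differed by 0.36 in white light and 1.46 in the milder shade, with a change of 1.77 (adjusted p = 0.0206). QQS behaved otherwise, since it was already higher in phyA by 1.97 in white light, and the change to strong shade was 0.48 (adjusted p = 0.666).

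**Figure D5:**
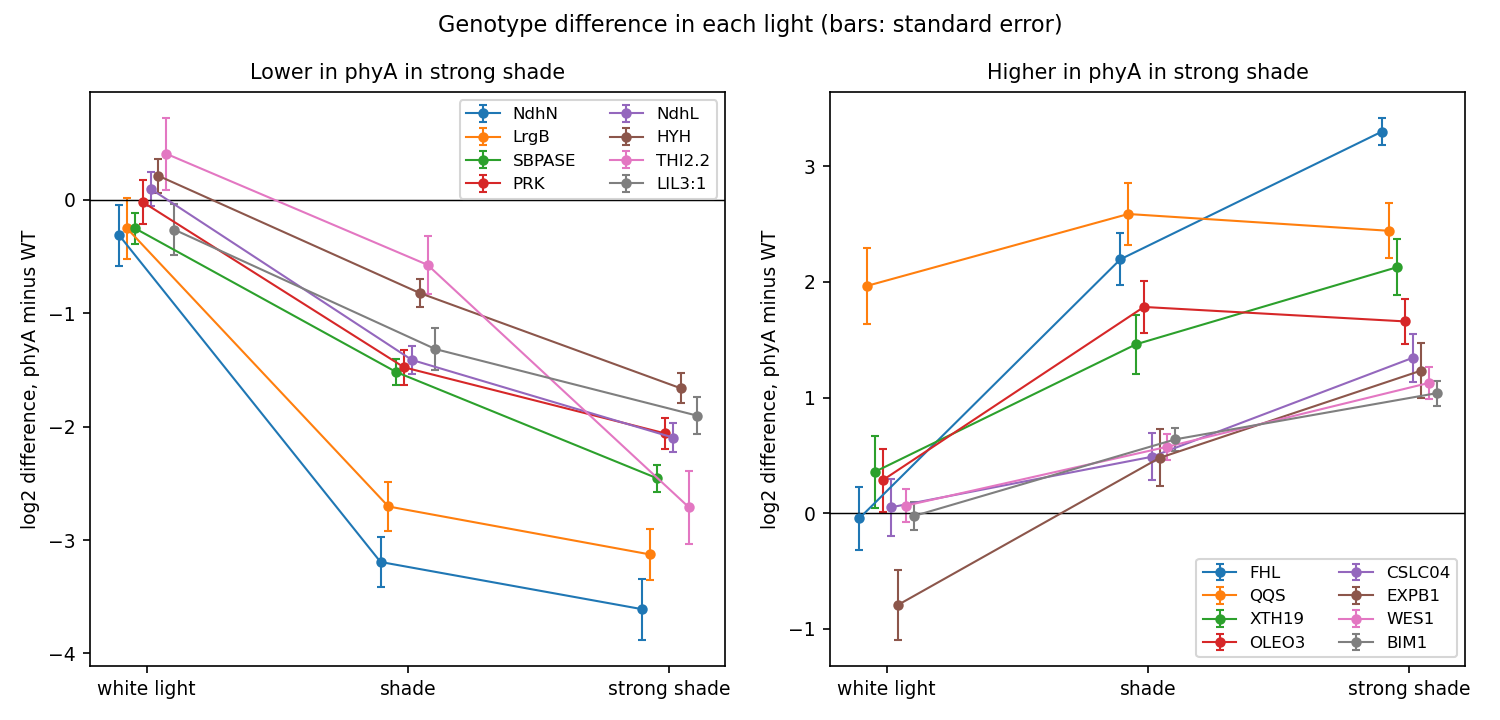
Difference in log2 intensity, phyA minus WT (vertical axis), in white light, shade and strong shade (horizontal axis) for 8 genes lower and 8 genes higher in phyA in strong shade; bars are standard errors, from the 6 strong shade arrays or, for white light and shade, from all 16 arrays. In white light QQS lies at 1.97 and FHL at -0.05, and in strong shade they lie at 2.44 and 3.30.

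No probe set passed the same test between strong shade and the milder shade (0%), where the smallest adjusted p was 0.142 and 1631 probe sets had an unadjusted p under 0.05. Without the third phyA arrays of both shades 15 probe sets passed, all towards lower (0.0659%). Without the first WT strong shade array 1 passed, and without the second WT strong shade array 3 passed. Calls shared by the shades were counted with both taken from the 16-array model, a choice made after seeing the data, as was leaving out the third phyA arrays in the milder shade. Of the 1424 probe sets lower in strong shade 702 were also lower in the milder shade, which is 49.3% of the first list and 86.0% of the 816. Of the 1235 that were higher 204 were also higher there, 16.5% of the first list and 75.6% of the 270. Without the third phyA arrays of both shades 739 lower probe sets were shared, 49.5% of 1492 and 85.7% of 862, and 293 higher ones, 20.5% of 1430 and 74.7% of 392.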

How the data were processed

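RNA from whole seedlings was hybridised to Affymetrix ATH1 arrays. The deposited values are 1 linear intensity per probe set and array, for which the submitters' processing notes name RMA and affy, with no version in the sources used here. RMA pulls the distributions of the arrays onto each other, and the number of arrays limits the precision. Log2 of the deposited intensities was taken with no pseudocount and no filter on dim probe sets, and fitted with limma 3.58.1 in R 4.3.3: the 6 strong shade arrays alone, with 4 residual degrees of freedom, and all 16 arrays, with 10, for the genotype differences in white light and in the milder shade and for the differences of differences. P-values were adjusted by Benjamini-Hochberg over all 22746 probe sets.

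Probe sets were named from the platform annotation, updated through a TAIR10.1 gene table that was used for names only. That annotation lists 1 gene for 13513 probe sets, several for 503 and no gene for 8730, so most lists hold only part of their pathway. For a gene with several probe sets, the one with the highest mean was used. Genes were named by rule. It took the 12 largest called differences in each direction with all arrays and without the third phyA array. It also took the 5 largest called differences between strong shade and white light in each direction. From each list it took up to 6 members, and 35 of the 36 lists had a measured member. Not every gene named by the rule is given in the text. With all arrays, the 12 were taken only from genes whose arrays did not overlap between the genotypes. The comparison, whose arrays the titles name, and the lists were chosen with earlier results of these data known. After values were seen, 14 measured entries were taken out of the lists because the symbol belongs to another function, 2 families were added (tubulins, and glycosyl hydrolase family 9, of which 3 of 15 were higher, each losing its call without the first phyA array or any 1 WT array), and further genes were picked, as the text says. With the entries kept, the Calvin cycle list had 3 of 4 called lower and the defence list 3 of 17. On simulated data with known changes the test recovered 68% of changes of 1 and 93% of changes of 2 on the log2 scale, with 7 false among 168 calls. The simulated noise was independent for each probe set and array. It held no array that stood apart as the third phyA array did, so these shares do not cover that case. Only 200 of 22746 probe sets were changed, a far smaller share than the 8.05% called in strong shade. The adjustment depends on that share, so recovery and false calls may differ in the real data.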

Additional observations from a re-analysis of the deposited data

Results flagged for a closer look

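The contrast of differences over all 16 arrays (limma, Benjamini-Hochberg adjustment) called 833 probe sets whose phyA minus WT difference in strong shade departed from that in white light. Among the named genes the largest departures upwards were 3.35 for FHL, 2.49 for AT1G15010, 2.3 for AT4G02360, 2.03 for EXPB1 and 2.02 for AT4G18970, all on the log2 scale. The largest downwards were -3.78 for AT3G22060, -3.57 for AT1G65230, -3.37 for AT3G48420, -3.29 for NdhN and -3.27 for AT1G27480. Each white light group holds 2 arrays, and these 10 genes were picked for the size of this departure.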

How the results depend on the processing

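The counts of 724 higher and 1108 lower probe sets in strong shade ranged from 246 to 1152 higher and from 664 to 1357 lower when 1 array was left out. Array weights gave 1396 higher and 1544 lower, all 16 arrays in the model 1235 and 1424, and all 16 without the third phyA arrays of both shades 1430 and 1492, so that 47.5%, 46.4% and 48.9% of calls were higher, against 39.5%. With 1 probe set per gene, fitted and adjusted over those 13355 alone, the counts were 353 and 527. At a difference of at least 1 they were 191 and 478. Cyclic loess gave 543 higher and 1250 lower, with 30.3% higher. The counts stayed within 1.5 times under median centring, without the dimmest 40% of probe sets and with a trended prior. Single calls were still lost. With the trended prior in limma these included AT1G73120 (adjusted p = 0.0875), AT4G35720 (0.0526), AT3G28270 (0.147), AT5G24580 (0.0646) and CaS. HIS1-3 was lost in limma after cyclic loess (adjusted p = 0.0609) and with all 16 arrays (0.0659). Same-numbered arrays of the genotypes deviated together at -0.046, 0.318 and 0.157, and other pairs of arrays at -0.326 to 0.154. With 3 arrays in each group these values cannot tell whether the arrays were paired. The replicate block gave 744 higher and 1076 lower.

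The 254 and 579 calls between strong shade and white light ranged from 110 to 316 and from 344 to 610 with 1 array left out. They were 110 and 361 without the second WT white light array, 119 and 344 without the first phyA white light array, 135 and 398 without the second, 156 and 412 without the first WT white light array, and 169 and 439 without the third WT strong shade array. Without the third phyA arrays of both shades 479 were higher, and the replicate block gave 210 and 509. Between the shades, counts with 1 array left out ranged from 0 to 1 higher and from 0 to 3 lower, and 15 were lower without the third phyA arrays, against 0 in limma with all arrays, where 1631 had an unadjusted p under 0.05. In the milder shade, omitting the third phyA array of each shade, tried after seeing the data, gave 392 higher and 862 lower, against 270 and 816. Of 127 called genes and probe sets that were checked, 72 kept their call under every alternative that held them, and 55 lost it under at least 1. The 127 include the most extreme probe sets with no gene listed, which the alternative with 1 probe set per gene did not hold. Of 97 named genes not called 29 were called under at least 1. The cause of these changes was not tested.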
